A study of Mus musculus with 8 samples.

Results

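The costimulatory and checkpoint ligands described here are 7 genes, taken from the 17364 gene symbols of the deposited tables by name: Cd80, Cd86, Icosl, Cd274 and Pdcd1lg2 of the B7 family, the receptor gene Cd40, and Cd83. They were measured by RNA sequencing of macrophages that were derived in culture from mouse bone marrow. Wild-type mice gave 4 libraries and Sept2C111A mice gave 4. Sept2C111A is an allele of the septin 2 gene whose name gives a cysteine-to-alanine change in this cytoskeletal protein. All 8 cultures, the wild-type ones included, were treated with TNF-α (30 ng/ml, 24 h), so no untreated level stands beside these values. The series title names S-nitrosylation of septin 2 as its subject. The labels do not say whether the 4 libraries of a genotype came from separate mice, so p-values refer to the spread among these libraries only, and that spread may be technical.

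Macrophages present antigen to T cells, and what the T cell does next depends on additional surface signals. CD80 and CD86 bind CD28, which promotes T cell activation, and CTLA4, which restrains it. ICOSL binds ICOS, another costimulatory receptor. PD-L1, encoded by Cd274, and PD-L2, encoded by Pdcd1lg2, bind the inhibitory receptor PD-1. CD40 receives CD40 ligand from helper T cells and in macrophages signals through TRAF adaptors and NF-κB. CD83 is a surface marker of mature dendritic cells and activated myeloid cells that counteracts removal of CD86 and MHC class II by MARCH ubiquitin ligases. Several of these genes are known targets of NF-κB, of interferon signalling or of both.

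Library totals ran from 19543958 to 21288493 expected counts. Septin2, the gene carrying the allele, measured 216 to 234 CPM in wild-type and 163 to 207 CPM in Sept2C111A libraries, and gene counts do not show the altered codon. CPM is the count of a gene scaled to 1e6 reads of normalised library size. On the leading principal component (45.1% of the variance in log2 CPM) Sept2C111A libraries 2 and 3 lay at 28.2 and 36.6, apart from libraries 1 and 4 at 0.866 and -1.97. For the 6 tested members and the called genes of the related lists, log2 fold changes are therefore also given without libraries 2 and 3. The 8 macrophage markers listed summed to 22684 to 24456 CPM in wild-type and 20465 to 22448 CPM in Sept2C111A libraries, without overlap. Lyz2 made up the largest part of that sum, at 14365 ± 498 and 12366 ± 897 CPM (log2 fold change -0.22). Log2 fold changes were also negative for Adgre1 (-0.20), Itgam (-0.35) and Cd14 (-0.18). They were near 0 for Csf1r (0.01) and positive for Cd68 (0.16), Mertk (0.33) and Fcgr1 (1.18). Of these 8, 1 rose (Fcgr1) and 7 did not pass, while 7 had an unadjusted p under 0.05, and DESeq2 called 2 higher and 1 lower. Over all tested genes, edgeR called 6.46%, and 24.8% had an unadjusted p under 0.05. Stromal markers were also present, and the 12 of them summed to 4581 to 5930 CPM in wild-type and 3574 to 4488 CPM in Sept2C111A libraries, without overlap. Of the 12, 3 fell (Postn, Acta2 and Col1a1), 1 rose (Pecam1) and 8 did not pass. These calls were unsteady: without wild-type library 1 or 3 none of the 12 was called, against 8 at an unadjusted p under 0.05 with all libraries, and the Pecam1 call was lost in 11 of 16 alternatives, Postn in 5 and Acta2 in 3. Other fits called more of the 12 lower. There were 8 without Sept2C111A library 4, and 5 each without Sept2C111A library 1, by DESeq2 and without the filter on low counts. Their part in the results below was not tested beyond the covariate fit given there. The 11 dendritic cell markers in the tables, a list that matters for costimulatory genes, summed to 9.64 to 17.5 CPM in wild-type and 7.28 to 15.9 CPM in Sept2C111A libraries. None of its 5 tested genes was called by edgeR, and 1 had an unadjusted p under 0.05. That gene was Dpp4, at 1.64 ± 0.744 and 4.91 ± 2.63 CPM (log2 fold change 1.57, 95% interval 0.61 to 2.53, edgeR adjusted p 0.057). By DESeq2, without the filter on low counts and without Sept2C111A library 4, 1 gene of the list was called higher. Itgax, with the most reads of the list (947), measured 7.05 ± 4.04 and 4.35 ± 1.92 CPM. Its log2 fold change was -0.70 (95% interval -1.53 to 0.14). Zbtb46, at 2.14 ± 0.477 and 1.66 ± 0.0684 CPM, had one of -0.37 (95% interval -0.78 to 0.05). Those of the scarcer Flt3 and Xcr1 were positive, at 0.17 and 0.20. Ccr7 and Lamp3, defining genes of mature dendritic cells, had 4 and 6 reads in all 8 libraries together. The 6 B cell markers summed to 23.1 to 25.8 CPM in wild-type and 31.0 to 36.6 CPM in Sept2C111A libraries. Of these, Cd22 was called higher, at 12.9 ± 0.611 and 23.2 ± 1.82 CPM. Cd79b, at 7.71 ± 1.16 and 8.41 ± 2.31 CPM, did not pass. Ebf1, at 3.99 ± 0.687 and 2.53 ± 0.824 CPM, went the other way (log2 fold change -0.65, 95% interval -1.15 to -0.15) and did not pass either (edgeR adjusted p 0.11). Cd79a, Pax5 and Ms4a1, the CD20 gene, had 8, 8 and 4 reads in all. Neutrophil, mast cell and basophil, and T and NK cell markers summed to at most 8.04, 8.89 and 1.91 CPM in any library, with none of their 8 tested genes called by edgeR and 1 at an unadjusted p under 0.05.

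In the Sept2C111A libraries Cd86 was higher and Cd40 lower, while Cd80, Cd83, Cd274 and Icosl did not pass the test and Pdcd1lg2 was too scarce to be tested. Cd86 went from 15.4 ± 1.65 to 21.3 ± 2.84 CPM and Cd40 from 128 ± 11.2 to 88.9 ± 9.86 CPM (mean ± SD, n = 4 libraries per genotype). The comparison used the quasi-likelihood test of edgeR with Benjamini-Hochberg adjustment over all genes tested, with 0.05 as the limit for a call. Of the 6 members tested, 1 was called higher and 1 lower, where 3.43% of all 12462 tested genes were called higher and 3.03% lower, 6.46% together. At an unadjusted p under 0.05 stood 4 of the 6, and 24.8% of all tested genes. The genotypes did not overlap for the 2 called members, and for 16.9% of all tested genes, 8.47% with Sept2C111A higher and 8.47% with it lower. The median log2 fold change was -0.19 over the 6 members and 0.01 over all tested genes. Each library is a bulk culture, in which fewer cells of a type and less RNA per cell cannot be told apart.

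**Figure D1:**
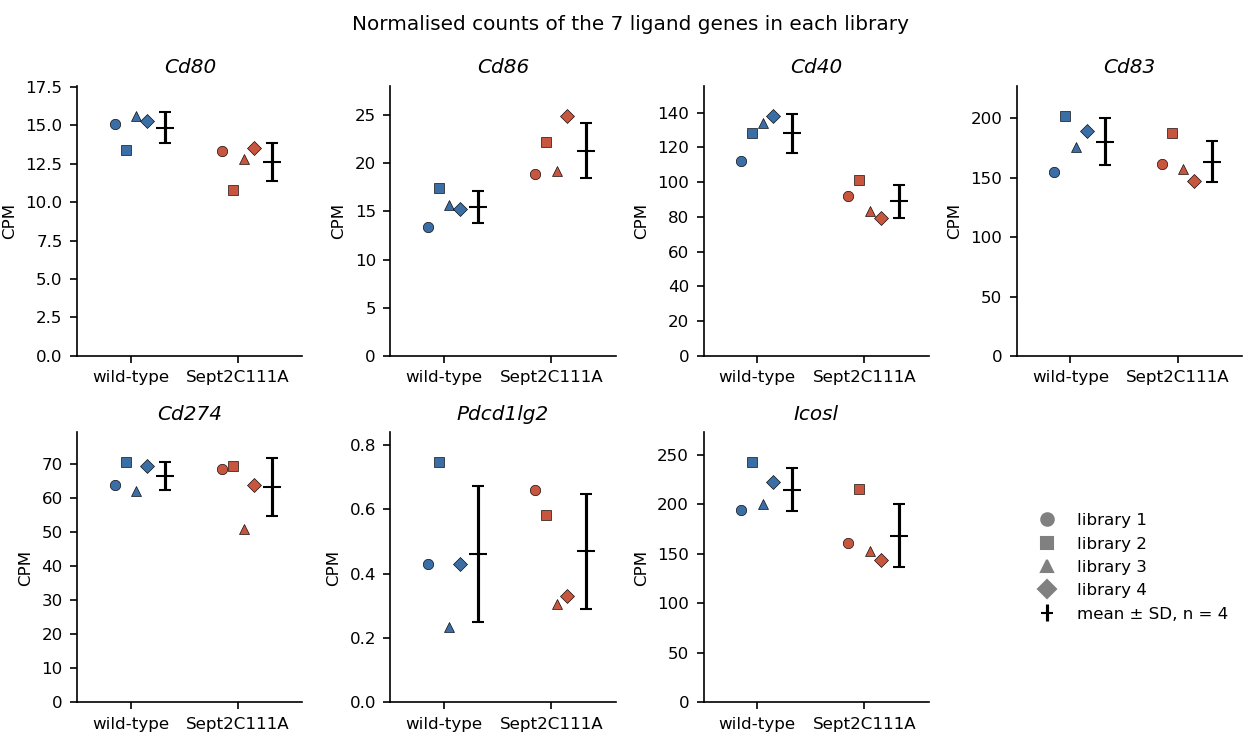
Normalised counts (CPM, linear axis from 0) of each of the 7 genes in the 4 wild-type (blue) and 4 Sept2C111A (red) libraries, with a marker shape per library number and bars for the mean ± SD. The 2 genotypes are separate for Cd86 and Cd40 and overlap for the other 5 genes.

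Per exon length, the scale on which different genes can be compared, the 7 genes spanned a wide range. In wild-type libraries Icosl and Cd83 were highest, at 76.2 ± 7.71 and 72.8 ± 8.10 CPM per kb of exon, and the ranges of their 4 libraries overlapped. Cd40 followed at 42.9 ± 3.74, Cd274 at 18.3 ± 1.13, Cd86 at 6.08 ± 0.648, Cd80 at 4.01 ± 0.266 and Pdcd1lg2 at 0.235 ± 0.108 CPM per kb. From Cd83 downwards, no library's value of a gene overlapped that of the next gene in the order. In Sept2C111A libraries Cd83, at 66.0 ± 7.19, and Icosl, at 59.8 ± 11.4 CPM per kb, again overlapped. The order of the others was the same, with Cd40 at 29.8 ± 3.30, Cd274 at 17.4 ± 2.35, Cd86 at 8.39 ± 1.12 and Cd80 at 3.41 ± 0.333 CPM per kb. These lengths join all exons of a gene, and with the median length of its coding transcripts instead, Cd40 came first in wild type, at 80.2 CPM per kb, and Cd80, at 8.72, stood above Cd86, at 6.08.

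**Figure D2:**
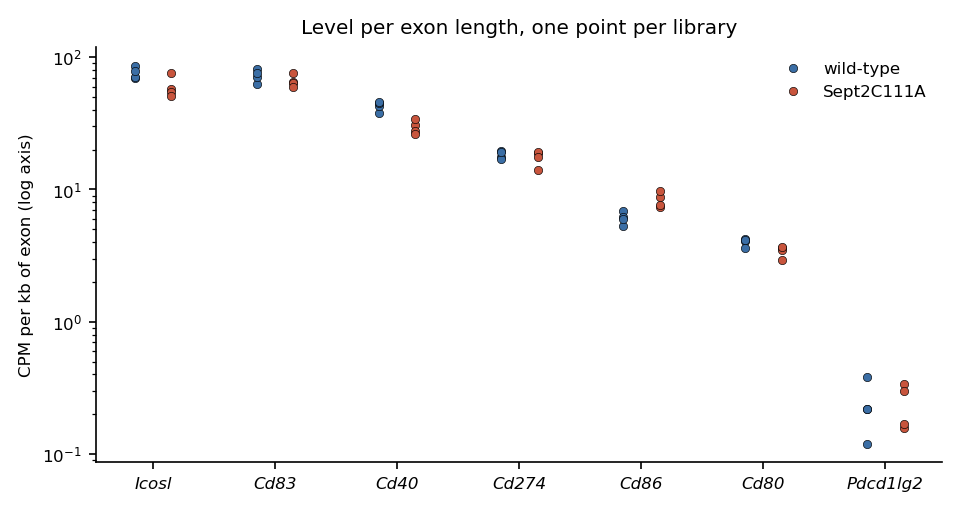
Level of each gene in CPM per kb of exon (log axis), with 1 point per library, wild-type in blue and Sept2C111A in red. Icosl and Cd83 share the top of the order and Pdcd1lg2 lies lowest, at 0.235 CPM per kb on average in wild type.

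The PD-1 ligand genes are neighbours on chromosome 19 of mm10 (GRCm38), both on the plus strand. Cd274 lies at 29367455 to 29388095 and Pdcd1lg2 at 29410919 to 29471161, 22823 bases further on. Per exon length Cd274 was 77.9 times Pdcd1lg2 in wild-type and 72.5 times in Sept2C111A libraries. An antisense gene overlaps each of them in the GENCODE annotation, and without a stated strand in the counting, reads of an antisense partner cannot be told apart. Because these adjacent genes differ so much in level, the 250 bases before each start are printed from the RefSeq promoter table (GRCm38.p6, plus strand). Capitals mark matches to a loose NF-κB motif, GGG and CC with any 5 bases between them, on either strand.
Cd274, chr19:29367188-29367437: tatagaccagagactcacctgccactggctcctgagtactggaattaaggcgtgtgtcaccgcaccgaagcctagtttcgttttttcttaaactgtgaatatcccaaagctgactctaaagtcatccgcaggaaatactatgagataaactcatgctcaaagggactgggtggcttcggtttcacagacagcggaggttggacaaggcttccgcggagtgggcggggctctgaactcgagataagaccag
Pdcd1lg2, chr19:29410669-29410918: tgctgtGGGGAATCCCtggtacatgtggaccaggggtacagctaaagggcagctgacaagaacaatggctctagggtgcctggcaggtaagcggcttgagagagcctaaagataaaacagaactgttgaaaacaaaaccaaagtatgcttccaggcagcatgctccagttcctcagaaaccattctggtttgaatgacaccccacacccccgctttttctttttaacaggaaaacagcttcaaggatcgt
The Pdcd1lg2 window holds 1 match, 244 bases before the start, and the Cd274 window holds none. Neither window holds GAAA repeated after any 2 bases (the interferon-stimulated response element), TTCNNNGAA (the STAT-bound GAS element) or TGANTCA (the AP-1 site), searched on both strands. Of 32851 promoter windows of the same length, 45.8% hold the NF-κB letters, 2.98%, 7.02% and 6.75% the other 3. A match is a description of the letters and no evidence of binding, and the absence of one says only that these letters are not in this window.

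Promoter windows of the same table were found for 4 of the 7 genes, the other two of them Icosl and Cd80. Icosl, the gene with the most reads of the 7, holds 2 matches to the NF-κB letters, 111 and 71 bases before its RefSeq start. The first is shown in capitals with 10 bases on either side, because it also lies before the GENCODE start of the gene.
Icosl, chr10:78069247-78069276, plus strand: gagcggaggcGGAGCTCCCCgcctccaacc
The Cd80 window, chr16:38458683-38458932, holds 2 matches to the NF-κB letters and 1 to the AP-1 letters before its RefSeq start. By GENCODE this window lies inside the gene, after the start at 38455561, so these matches are not upstream of that start. No window was found for Cd86, Cd40 and Cd83, so these genes were not searched for the letters.

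Cd86 lies on the minus strand of chromosome 16 at 36603869 to 36666081 and encodes B7-2, a ligand of CD28 and CTLA4. Wild-type libraries 1 to 4 measured 13.4, 17.4, 15.7 and 15.2 CPM, from 281 to 373 reads. Sept2C111A libraries 1 to 4 measured 18.9, 22.2, 19.2 and 24.9 CPM, from 378 to 527 reads. Every Sept2C111A library lay above every wild-type library, library 4 being the highest. The log2 fold change was 0.46 (SE 0.11, 95% interval 0.22 to 0.71), a fold of 1.38, with an adjusted p of 0.033 in edgeR. In the exact two-sided permutation test on log2 CPM, p was 0.0286, which is the lowest value possible with 4 libraries against 4. The call ended on removal of Sept2C111A library 2 or of 1 wild-type library (1, 3 or 4), at edgeR adjusted p from 0.086 to 0.10. Without Sept2C111A libraries 2 and 3 together the log2 fold change was 0.50, with an adjusted p of 0.052.

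Cd80, on the plus strand of the same chromosome at 38455561 to 38496335, encodes B7-1, which binds the same receptors. Its wild-type libraries 1 to 4 measured 15.1, 13.4, 15.6 and 15.3 CPM. Its Sept2C111A libraries measured 13.3, 10.8, 12.8 and 13.5 CPM. The groups overlapped only through wild-type library 2, at 13.4, and Sept2C111A library 4, at 13.5 CPM. The log2 fold change was -0.23 (SE 0.093, 95% interval -0.44 to -0.03), with an adjusted p of 0.15, which did not pass. The unadjusted p was 0.029, and the exact permutation test gave p = 0.0571. Without Sept2C111A libraries 2 and 3 the log2 fold change was -0.15, with an edgeR adjusted p of 0.44.

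In reads, Cd80 and Cd86 were close to each other in wild type and apart in Sept2C111A libraries. The log2 ratio of Cd80 to Cd86 reads within a library was -0.05 ± 0.23 in wild-type and -0.75 ± 0.25 in Sept2C111A libraries (SD, n = 4), a difference of -0.70. Such a ratio does not depend on how libraries are scaled. The 2 genotypes did not overlap in it, and the exact permutation test gave p = 0.0286, or 0.0613 after Benjamini-Hochberg adjustment over all 15 pairs of tested members, which did not pass. Since 0.0286 is the lowest p possible, a pair could pass this adjustment only if most of the 15 pairs reached it.

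Cd40, on the plus strand of chromosome 2 at 165055627 to 165072948, encodes the receptor for CD40 ligand. Wild-type libraries 1 to 4 measured 112, 128, 134 and 138 CPM, from 2357 to 2883 reads. Sept2C111A libraries measured 92.1, 101, 83.1 and 79.1 CPM, from 1634 to 1947 reads. All Sept2C111A values lay below all wild-type values, the nearest being 101 in Sept2C111A library 2 and 112 in wild-type library 1. The log2 fold change was -0.53 (SE 0.091, 95% interval -0.73 to -0.33), with an adjusted p of 0.0078 in edgeR and p = 0.0286 in the exact permutation test. The call held under each of the 16 alternatives run, with log2 fold changes from -0.66 to -0.47 and adjusted p from 1.3e-05 to 0.040. Without Sept2C111A libraries 2 and 3 the log2 fold change was -0.58, with an edgeR adjusted p of 0.0063.

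Because the stromal marker list moved with genotype in these cultures, the fit was repeated with the mean log2 CPM of that list as a covariate. That score ran from 4.868 to 5.131 in wild-type and from 4.381 to 4.873 in Sept2C111A libraries. The genotypes overlapped in it only through wild-type library 2, at 4.868, and Sept2C111A library 4, at 4.873. Score and genotype can therefore hardly be told apart in this fit, and a call lost in it does not separate them. Cd40 then had a log2 fold change of -0.66 and an edgeR adjusted p of 0.031. Cd86 had 0.49 (SE 0.16) with an adjusted p of 0.24, so its call was lost at an estimate close to the 0.46 without the covariate (SE 0.11). Icosl went from -0.35 to -0.63 (adjusted p 0.066), Cd83 from -0.14 to -0.35 (0.24), Cd80 from -0.23 to -0.08 (0.86) and Cd274 from -0.07 to -0.03 (0.96), and none of these passed. In that fit 127 genes were called over the whole table, against 805 without the covariate.

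Icosl, on the plus strand of chromosome 10 at 78069302 to 78083913, encodes the ligand of ICOS. Wild-type libraries 1 to 4 measured 194, 242, 200 and 222 CPM. Sept2C111A libraries measured 161, 215, 153 and 144 CPM. Sept2C111A library 2 lay inside the wild-type range and the other three lay below it. The log2 fold change was -0.35 (SE 0.12, 95% interval -0.62 to -0.08), and edgeR gave an adjusted p of 0.11, above the limit. The exact permutation test gave p = 0.0857. Without Sept2C111A library 2 it was -0.48 and passed, with an edgeR adjusted p of 0.022, and without libraries 2 and 3 together it was -0.49, with an adjusted p of 0.016.

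**Figure D3:**
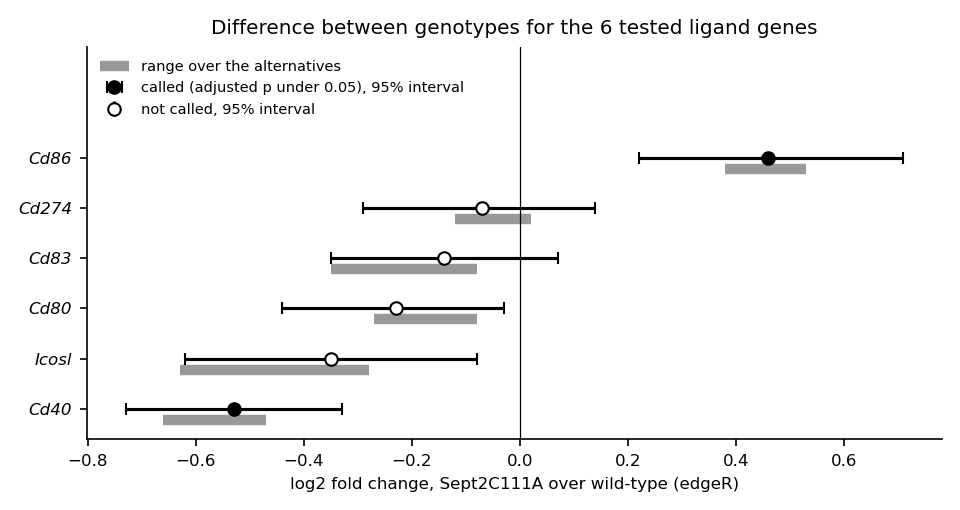
Log2 fold change of Sept2C111A over wild type in edgeR for the 6 tested genes (circles, filled where called), with 95% intervals and, in grey, the range of the estimate over the alternatives run. Cd86, at 0.46, lies to the right of 0 and Cd40, at -0.53, to the left, and the range of Cd274 spans 0.

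Cd83, on the plus strand of chromosome 13 at 43784775 to 43803132, was among the most abundant of the 7. Wild-type libraries 1 to 4 measured 155, 202, 176 and 189 CPM. Sept2C111A libraries measured 162, 188, 157 and 147 CPM. The groups overlapped, and the log2 fold change of -0.14 (SE 0.097, 95% interval -0.35 to 0.07) had an adjusted p of 0.40 in edgeR. In fold terms the interval ran from 0.783 to 1.05. Without Sept2C111A libraries 2 and 3 the log2 fold change was -0.22 (adjusted p 0.26).

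Cd274, the PD-L1 gene, was the member nearest to no difference among the 6 tested. Its wild-type libraries 1 to 4 measured 63.9, 70.4, 62.1 and 69.4 CPM. Its Sept2C111A libraries measured 68.4, 69.4, 51.0 and 63.7 CPM. Sept2C111A library 3 was the lowest of the 8 and the other three lay within the wild-type range. The log2 fold change was -0.07 (SE 0.096, 95% interval -0.29 to 0.14), with an adjusted p of 0.68 in edgeR, without Sept2C111A library 3 it was 0.02, and without libraries 2 and 3 it was -0.0069. The interval leaves room for a fold between 0.821 and 1.10.

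Pdcd1lg2, the PD-L2 gene, had 9, 16, 5 and 9 reads in wild-type and 14, 11, 6 and 7 reads in Sept2C111A libraries, in library order. It did not pass the filter on low counts. The sums were 39 reads (exact 95% Poisson interval 27.7 to 53.3) and 38 reads (26.9 to 52.2), and the intervals cover counting error only. The means were 0.460 ± 0.211 and 0.470 ± 0.179 CPM, and a difference was not detectable at this depth.

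Ratios between members were compared for all 15 pairs of tested members. In 7 of the 15 pairs the genotypes did not overlap, each with p = 0.0286 in the exact permutation test. None of the 15 passed after Benjamini-Hochberg adjustment, the smallest adjusted p being 0.0613, while 7 had an unadjusted p under 0.05. With 0.0286 as the lowest p possible, a pair could pass only if most of the 15 reached it. The lack of calls therefore does not show that the members responded alike. All 5 pairs that hold Cd86 were among the 7, and the other two hold Cd40, so each of the 7 includes a member called on its own. The log2 ratio of Cd86 to Cd40 reads had the largest difference of the 15 pairs, from -3.05 ± 0.13 in wild-type to -2.06 ± 0.27 in Sept2C111A libraries, a difference of 0.99. The ratio of Cd86 to Cd274 went from -2.11 ± 0.13 to -1.57 ± 0.23, that to Cd83 from -3.54 ± 0.063 to -2.94 ± 0.26, and that to Icosl from -3.79 ± 0.092 to -2.97 ± 0.32. The remaining pairs without overlap were Cd40 with Cd83, whose log2 ratio went from -0.49 ± 0.12 to -0.88 ± 0.043, and Cd40 with Cd274, from 0.94 ± 0.13 to 0.50 ± 0.17. Cd40 to Icosl overlapped, at -0.74 ± 0.15 and -0.91 ± 0.12.

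After subtraction of the genotype means, Cd83, Icosl and Cd40 varied closely together over the 8 libraries, at r of 0.922 for Cd83 with Icosl, 0.834 for Cd40 with Cd83 and 0.761 for Cd40 with Icosl. Cd80 ran opposite to Icosl (-0.912) and Cd83 (-0.770). Cd86 was tied to none of them closely, at -0.280 to 0.353. These are descriptions over libraries that share their scaling. In both genotypes library 2 held the highest Cd83, Cd274 and Icosl values and the lowest Cd80 value. Icosl had a coefficient of variation of 10.1% in wild type and 19.0% in Sept2C111A, and Cd274 one of 6.15% and 13.5%. That of Cd83 was 11.1% and 10.9%.

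The genes whose level followed each member most closely were sought among 8196 genes (mean CPM 10 or more), by Pearson r of log2 CPM over the 8 libraries after subtraction of the genotype means. These are the 2 highest of many, over few libraries that share their scaling, and are given as a description. For Cd80 they were the tubulin genes Tuba1a (r = 0.995) and Tubb3 (r = 0.980). For Cd274 they were the inhibitory Fc receptor gene Fcgr2b (r = 0.993) and the phosphoinositide phosphatase gene Inpp4a (r = 0.985). For Cd83 they were the guanylate-binding protein gene Gbp3 (r = 0.975) and the cytidine deaminase gene Apobec3 (r = 0.970). Icosl was followed by Agtrap (r = 0.970) and Fadd (r = 0.969), the latter a death receptor adaptor, Cd86 by the surface receptor gene Slamf7 (r = 0.964) and Serp1 (r = 0.961), and Cd40 by the tetraspanin gene Tspan3 (r = 0.950) and the phosphatase gene Dusp2 (r = 0.923).

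The partners of the members on T cells were nearly absent, apart from Cd28. Cd28 itself measured 10.2 ± 0.787 and 11.1 ± 0.727 CPM and was not called (log2 fold change 0.11, 95% interval -0.08 to 0.31). Ctla4, Icos and Cd40lg had 2, 9 and 1 reads in the 8 libraries together. Pdcd1, the PD-1 gene, was not analysed here.

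Of 8 other B7 and butyrophilin genes in the tables, 2 were abundant enough to test. Vsir, which encodes the inhibitory B7 protein VISTA, rose from 210 ± 9.69 to 282 ± 21.5 CPM, by 0.43 on the log2 scale (SE 0.070, edgeR adjusted p = 0.0058). It was 0.40 without Sept2C111A libraries 2 and 3. Among the 16 alternatives run, the call was lost only with the stromal score as covariate, where the log2 fold change was 0.38 (SE 0.096, adjusted p 0.11). Cd276, the B7-H3 gene and the only other one tested, had a log2 fold change of -0.33 (95% interval -0.63 to -0.03) and an edgeR adjusted p of 0.16.

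Of 7 costimulatory ligands of the TNF superfamily, 3 were tested, 2 fell and 0 rose. Over all tested genes 3.03% were called lower and 3.43% higher. An unadjusted p under 0.05 was found for 2 of the 3, against 24.8% of all tested genes. Tnfsf9, the ligand of 4-1BB, went from 44.4 ± 1.46 to 24.3 ± 2.68 CPM (log2 fold change -0.87, SE 0.082; -0.79 without Sept2C111A libraries 2 and 3), and was called under each of the 16 alternatives run. Tnfsf4, the OX40 ligand gene, was scarce, at 1.16 ± 0.369 and 0.506 ± 0.0694 CPM, and its call (adjusted p = 0.039 in edgeR) was lost in 10 of 15 alternatives, at adjusted p from 0.054 to 0.42. The log2 fold change stayed between -1.37 and -1.03 over those 15, and was -1.18 with all libraries. Among the 10 were the removal of Sept2C111A library 1, 2 or 3, of libraries 2 and 3 together (-1.15) and of wild-type library 1, 2 or 3.

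Among 11 other inhibitory ligands and receptors, all tested, 3 rose, 0 fell and 8 did not pass. Of all tested genes 3.43% were called higher. At an unadjusted p under 0.05 stood 6 of the 11, against 24.8% of all tested genes. These 6 were the 3 that rose and 3 uncalled genes with negative log2 fold changes. The latter were Pvr (-0.16, edgeR adjusted p 0.15), Nectin2 (-0.17, 0.17) and Cd200 (-0.54, 0.095). Lgals9, the galectin-9 gene, rose from 113 ± 4.69 to 200 ± 24.3 CPM, by 0.82 on the log2 scale (SE 0.085; 0.67 without Sept2C111A libraries 2 and 3), and was called under each of the 16 alternatives run. Havcr2, which encodes TIM-3, a receptor for galectin-9, rose from 3.74 ± 0.626 to 5.98 ± 0.911 CPM. Cd200r1, an inhibitory receptor of myeloid cells, rose from 34.0 ± 1.78 to 43.7 ± 4.26 CPM. The Cd200r1 log2 fold change was 0.36 (adjusted p 0.024 in edgeR). Its call was lost without wild-type library 1, 3 or 4, at adjusted p from 0.063 to 0.098, and with the stromal covariate, at 0.14 and a log2 fold change of 0.41, and it held without Sept2C111A libraries 2 and 3, also at 0.41. The Havcr2 log2 fold change was 0.68 (adjusted p 0.030). Its call was lost without Sept2C111A library 2 or 3 and without wild-type library 1, 2 or 3, at adjusted p from 0.051 to 0.089. It was also lost without Sept2C111A libraries 2 and 3 together, at a log2 fold change of 0.55 (0.11), and with the stromal covariate, at 0.53 (0.42).

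Of 11 genes that carry or regulate the CD40 signal, edgeR called 0, as did DESeq2 and limma voom, and 1 had an unadjusted p under 0.05. The shares over all tested genes were 6.46% called by edgeR and 24.8% at an unadjusted p under 0.05. Their median log2 fold change was -0.07. Nfkb2, which encodes the NF-κB precursor of the noncanonical branch and was the most abundant of the list, measured 422 ± 7.69 and 385 ± 35.8 CPM (log2 fold change -0.13, 95% interval -0.29 to 0.03). Without Sept2C111A libraries 2 and 3, 1 of the 11 was called lower.

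Among 11 genes of the interferon and JAK-STAT route known to act on Cd274, all tested, 1 rose, 1 fell and 9 did not pass, while Cd274 was not called. Over all tested genes 3.43% were called higher and 3.03% lower. An unadjusted p under 0.05 was found for 5 of the 11, against 24.8% of all tested genes. DESeq2 called 2 of the 11 higher and 1 lower. Irf9, a subunit of the interferon-activated factor ISGF3, rose from 54.5 ± 4.60 to 68.1 ± 5.89 CPM. Irf1, a direct activator of the PD-L1 gene, fell from 350 ± 16.8 to 275 ± 31.9 CPM. Both calls were near the threshold, with edgeR adjusted p of 0.043 and 0.037. The log2 fold changes were 0.32 and -0.34, and stayed at 0.29 to 0.39 and -0.40 to -0.27 over single libraries left out. Both calls ended on removal of wild-type library 1, 3 or 4 and with the stromal covariate, where the log2 fold changes were 0.26 and -0.35. They were 0.30 and -0.33 without Sept2C111A libraries 2 and 3. Irf1 was also lost without Sept2C111A library 1 or wild-type library 2, and Irf9 without Sept2C111A library 2, alone or together with library 3.

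Among 5 genes that act on the turnover of these ligands at the membrane, 1 rose and 4 did not pass. An unadjusted p under 0.05 was found for 2 of the 5, against 24.8% of all tested genes, of which 3.43% were called higher. Cd74 had a log2 fold change of -0.39 (95% interval -0.67 to -0.11, edgeR adjusted p 0.092). By DESeq2, without Sept2C111A library 3 and without libraries 2 and 3 together, 1 gene of the list was called lower. Marchf1, a ubiquitin ligase known to remove CD86 from the surface of antigen-presenting cells, rose from 51.7 ± 5.33 to 65.7 ± 4.42 CPM, by 0.35 on the log2 scale (SE 0.084, edgeR adjusted p = 0.035), in the same libraries in which Cd86 RNA rose. Removal of wild-type library 1, 3 or 4, of Sept2C111A library 2, or of Sept2C111A libraries 2 and 3 together ended the call, as did the stromal covariate, at adjusted p from 0.053 to 0.34. Its log2 fold change was 0.37 without both libraries and 0.32 with the covariate. Cmtm6, whose product keeps PD-L1 at the membrane, is named here after its values were seen, at 96.6 to 105 CPM in wild-type and 88.0 to 103 CPM in Sept2C111A libraries, with a log2 fold change of -0.07 (95% interval -0.21 to 0.07).

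**Figure D4:**
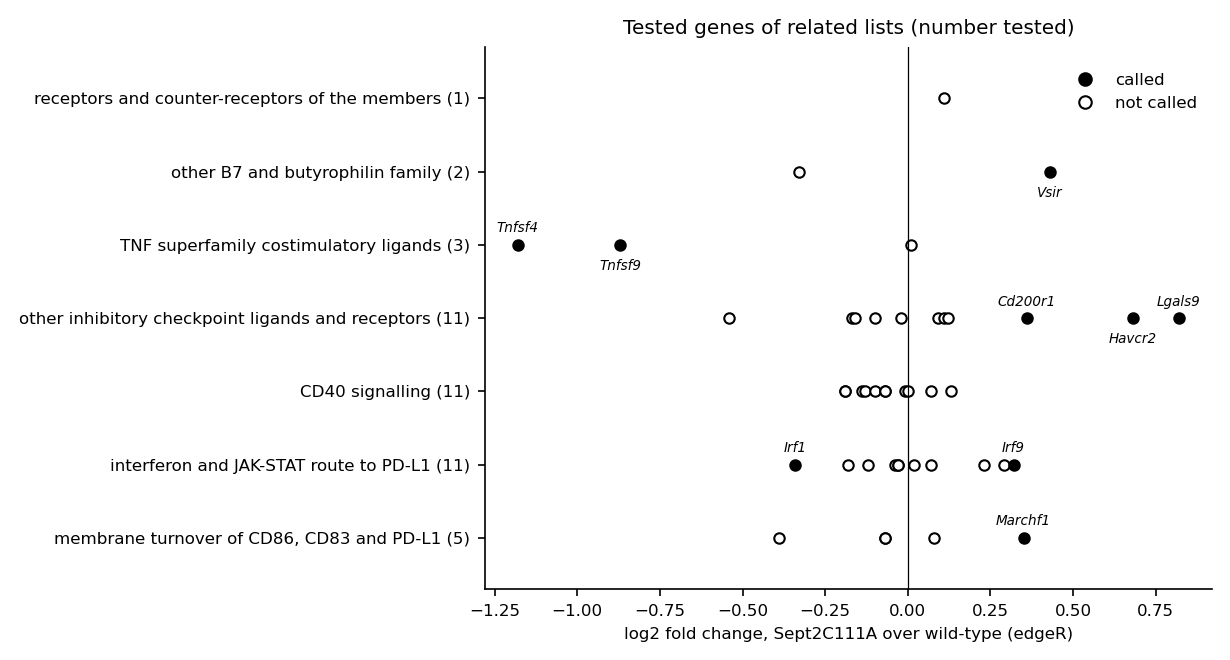
Log2 fold change of Sept2C111A over wild type in edgeR for each tested gene of the 7 related lists, with the number tested in brackets and called genes filled and named. Both called TNF superfamily ligands lie to the left of 0 and all 3 called genes of the other inhibitory list to the right, while the 11 CD40 signalling genes hold no filled circle.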

How the data were processed

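The authors deposited, for each of the 8 libraries, expected counts (estimated counts that need not be whole) per gene symbol. Per the submitters' processing notes, the tools included Bowtie2, RSEM 1.3.1 and DESeq2 1.4.5 with build mm10, without their roles. Selection of mRNA on oligo(dT) is given per the labels' protocols. The annotation, strand setting and gene filters are not stated there.

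Counts were rounded, genes filtered with filterByExpr (minimum count 10), and libraries scaled by TMM. Genotypes were compared, two-sided, by edgeR 4.0.16 (R 4.3.3) and its quasi-likelihood F test. DESeq2 1.42.0 and limma 3.58.1 (voom) were alternatives. The SE is the absolute log2 fold change over the root of F. Ratios between members used reads plus 0.5. Exon lengths and coordinates came from GENCODE M21 (GRCm38). A count of 0 allows up to 3 counts, 0.14 to 0.159 CPM. Scripts were tested on simulated data, and no library was a copy of another (mean chi-square per gene at least 4.26 in 28 pairs).

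The members and the 14 other lists were chosen with earlier results of these data known, and 2 listed genes are not reported here. All 7 members are named. Each other list gives up to 3 called genes with the smallest adjusted p, or its most abundant tested gene, and each tested member the 2 genes most like it. Other genes were named after their values were seen. These are Col1a1, Dpp4, Cd276, Cmtm6, Cd74, Pvr, Nectin2, Cd200, Zbtb46, Flt3, Xcr1, Cd79b, Ebf1, the uncalled macrophage markers and those given by read counts.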

Additional observations from a re-analysis of the deposited data

How the results depend on the processing

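Cd40 was called in all 16 alternatives, Cd86 in 10 and Icosl in 2, and Cd80, Cd83 and Cd274 in none, with lowest adjusted p of 0.084, 0.24 and 0.54. The number of members called higher was 1, and 0 to 1 on leaving out 1 library, 0 without Sept2C111A libraries 2 and 3 and 0 with the stromal score as covariate. The number called lower was 1, and 1 to 2 on leaving out 1 library and 2 without Sept2C111A libraries 2 and 3, Icosl being the addition. Over all genes 805 were called, against 1450 by DESeq2, 494 with the replicate block, 492 without Sept2C111A libraries 2 and 3, 127 with the stromal score, and 266 (without wild-type library 3) to 2077 (without Sept2C111A library 4) on leaving out 1 library. With the replicate block both member calls held, Cd86 at an adjusted p of 0.042 and Cd40 at 0.032, while Cd200r1 (0.051), Havcr2 (0.051), Tnfsf4 (0.071) and Pecam1 (0.11) lost theirs, which took the other inhibitory list from 3 called to 1, and 1 dendritic cell gene was called higher. Same-numbered libraries deviated together by r of 0.137, 0.0956, -0.023 and -0.237, so the numbers were not taken as pairs. Normalization by DESeq2 size factors, limma voom and both other filters left the 2 calls in place. The Cd274 log2 fold change changed sign on leaving out Sept2C111A library 3, and ran from -0.12 to 0.019 over the libraries left out. Of uncalled markers, Lck changed sign without wild-type library 2 or 3 (-0.093 to 0.23 over the libraries left out), S100a9 without Sept2C111A library 1 (-0.022 to 0.64) and Mcpt8 without Sept2C111A libraries 2 and 3 (0.035) or with the stromal score (0.45). Of the 15 pairs, 0 passed on leaving out any 1 library or without the offset, and without libraries 2 and 3 the smallest possible p, 0.0667, allows no call. In the former settings, too, a pair could pass only if most of the 15 reached the lowest p possible. DESeq2 gave no adjusted p for Lck. Pdcd1lg2 had too few reads for the main test. It was tested without the filter on low counts and on leaving out wild-type library 1, 3 or 4. It was also tested without Sept2C111A library 3 or 4 and without libraries 2 and 3 together. Pdcd1lg2 was called in none of these fits. For the other members counting error was not separated from the rest of the spread.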
